A study of Mus musculus with 74 samples.

Results

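The broad binding sites of KRAB zinc-finger proteins (KRAB-ZFPs) in the mouse genome were examined, leaving out Gm13225, the KRAB-ZFP whose own peaks are nearly all broad. Members were selected on the deposited width alone: a peak belonged to the set when the peak caller had drawn it 1500 bp or wider and it came from a labelled KRAB-ZFP other than Gm13225. The set held 322 of 49441 such peaks, or 0.651%, and 19 of the 66 KRAB-ZFPs contributed to it. By comparison, 3460 of the 3570 peaks of Gm13225 reached that width. Because the width chose the members, their widths, tags and fold enrichments are described here without a test.

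The study expressed epitope-tagged KRAB-ZFPs one at a time from stably integrated vectors and mapped their binding by chromatin immunoprecipitation and sequencing (ChIP-seq). Resistant cells were pooled before ChIP, and each of the 68 KRAB-ZFPs was measured in 1 library, with 6 control libraries beside them, so that no peak has a replicate check. The 15 KRAB-ZFPs with broad peaks in F9 cells, a mouse embryonal carcinoma line, carried a 3XFLAG tag (Gm13152, Gm13154, Gm21082, LOC102638055, Zfp46, Zfp617 and Zfp882) or a 3XHA tag (Zfp808, Gm14412, Zfp661, Zfp273, Zfp429, AW146154, Zfp457 and Zfp599). The other 4 (Gm14419, Gm14420, Gm14401 and Zfp931) carried 3XHA in B6 embryonic stem (ES) cells. All are overexpressed proteins, and the endogenous protein was not measured. An F9 peak had to be called both over input and over a ChIP from control cells with the same antibody, except that Gm14412 was called over a Gm14296 control ChIP. Peaks in ES cells were called over an ES input alone. The labels give p under 1e-10 and enrichment over 20 for most of the F9 libraries, enrichment over 10 for Zfp882, p under 1e-05 with enrichment over 10 for Zfp457, and p under 1e-05 without an enrichment minimum for the 4 libraries of ES cells. Tags in peaks, the only depth the table holds, summed to between 4036 and 540220 for the KRAB-ZFPs with a broad peak.

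KRAB-ZFPs form one of the largest families of mammalian transcription factors. Their zinc fingers read the DNA sequence, and their KRAB domain attracts the corepressor KAP1 (TRIM28), around which repressive chromatin marked by H3K9me3 builds up. The family is best known for keeping retrotransposons silent in early embryonic cells. A single short binding site usually gives a narrow peak about as wide as the sequenced fragments. Tandem repeats are head-to-tail copies of a unit, and a unit that holds a binding site offers many sites side by side. CpG islands are stretches of unmethylated, GC-rich DNA that keep their CpG dinucleotides and hold most promoters of housekeeping and developmental genes.

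The broad peaks were concentrated in few proteins. Zfp808 had 112, Gm14412 had 86 and Gm13152 had 69, together 267 of 322 or 82.9%. Gm14419 had 15, Zfp661 had 8, Gm14420 had 7, Gm13154 and Gm14401 had 5 each and Zfp931 had 3. Zfp273 and Zfp429 had 2 each, and 8 further KRAB-ZFPs had 1. As a share of all their peaks, broad ones made up 20.6% for Zfp808 (544 peaks), 3.09% for Gm14412 (2787 peaks), 1.33% for Gm13152 (5189 peaks) and 0.384% for Gm14419 (3906 peaks). For Zfp808 the whole width distribution was shifted, with a median over all its peaks of 1263 bp against 770 bp for Gm14412, 741 bp for Gm14419 and 626 bp for Gm13152. In the remaining 15 KRAB-ZFPs the median over all peaks lay at or below 549 bp, and the broad peaks stood far above it. The widest member, 8337 bp, belonged to Gm14419.

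**Figure D1:**
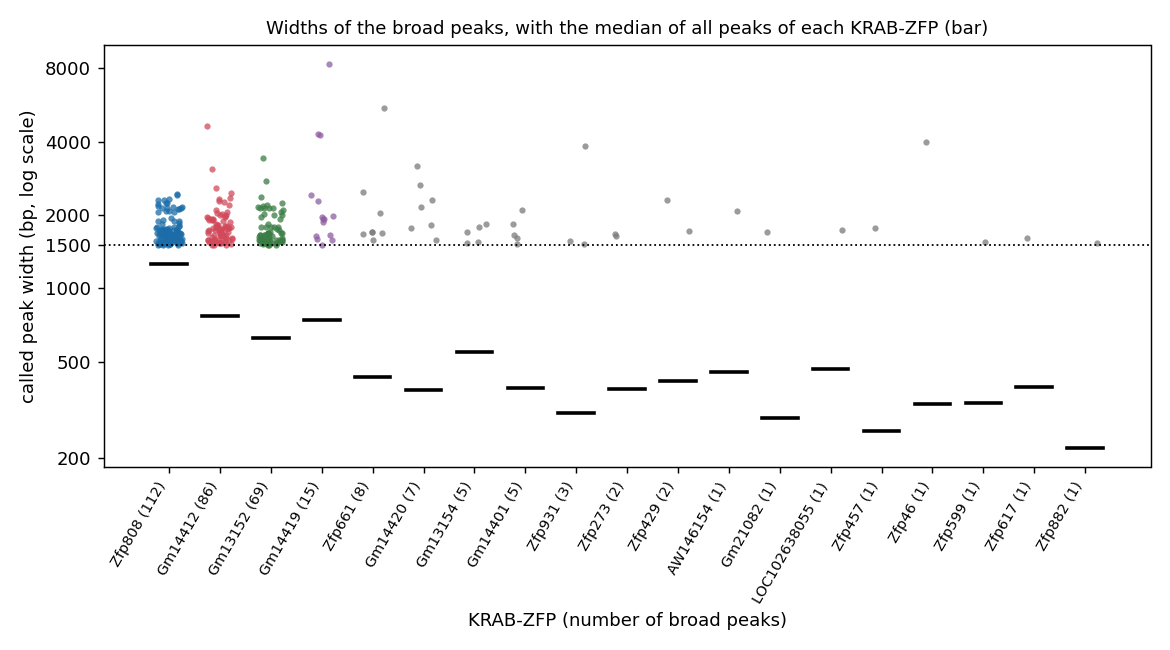
Called width of each broad peak (points, bp, log scale) for the 19 KRAB-ZFPs, with the number of broad peaks in parentheses, a bar at the median width of all peaks of that KRAB-ZFP and a dotted line at 1500 bp. The median bar of Zfp808 sits at 1263 bp, close to the line, while the bars of the KRAB-ZFPs with a single broad peak sit between 221.5 and 464 bp.

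The 3 members just inside were a Gm13152 peak of 1500 bp at the start of Cggbp1, a Gm14412 peak of 1503 bp in an intron 4432 bp from the nearest transcript start (Psmd5), and a Zfp808 peak of 1503 bp on the X chromosome. The 3 peaks just outside were Zfp808 peaks of 1498 bp on chromosomes 8 and 5 and a Gm14412 peak of 1497 bp on the X chromosome.

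The sequences under the summits show how unlike each other the broad peaks of the 4 most frequent KRAB-ZFPs were. For each of Zfp808, Gm14412, Gm13152 and Gm14419, the 200 bp summit window with the highest and the one with the lowest CpG observed/expected ratio among its 3 widest peaks are printed below from the mm9 plus strand. This ratio divides the count of CpG by the count that the C and G content of the window would give if bases were placed independently. In the Zfp808 windows capitals mark the 10 letters GGTGCACCAA on either strand, whose 2 orientations overlap in the printed copies. In the other windows capitals mark every CpG.
Zfp808 near 2810429I04Rik, chr13:3336457-3336656: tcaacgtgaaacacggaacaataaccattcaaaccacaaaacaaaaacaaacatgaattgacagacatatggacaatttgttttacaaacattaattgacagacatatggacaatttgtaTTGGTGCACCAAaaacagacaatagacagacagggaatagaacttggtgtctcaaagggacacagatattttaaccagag
Zfp808 near Gm13809, chr2:99409996-99410195: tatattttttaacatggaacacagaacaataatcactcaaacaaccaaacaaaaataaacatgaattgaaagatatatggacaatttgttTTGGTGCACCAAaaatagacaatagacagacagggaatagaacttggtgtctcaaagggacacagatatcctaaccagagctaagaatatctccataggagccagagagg
Gm14412 near Veph1, chr3:66439197-66439396: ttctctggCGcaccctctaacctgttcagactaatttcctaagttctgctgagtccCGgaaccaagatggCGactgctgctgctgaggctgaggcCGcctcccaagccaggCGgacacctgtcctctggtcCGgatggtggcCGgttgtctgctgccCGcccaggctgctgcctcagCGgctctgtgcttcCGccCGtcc
Gm14412 near Det1, chr7:85976372-85976571: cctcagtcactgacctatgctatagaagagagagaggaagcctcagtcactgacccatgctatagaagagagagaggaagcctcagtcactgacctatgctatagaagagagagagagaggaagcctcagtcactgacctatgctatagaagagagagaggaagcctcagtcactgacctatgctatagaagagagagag
Gm13152 near AC166252.1, chr6:47703144-47703343: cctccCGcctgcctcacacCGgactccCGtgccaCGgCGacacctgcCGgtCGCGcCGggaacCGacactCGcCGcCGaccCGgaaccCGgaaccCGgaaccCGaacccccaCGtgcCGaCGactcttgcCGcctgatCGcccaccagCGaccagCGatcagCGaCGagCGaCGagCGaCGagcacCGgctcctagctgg
Gm13152 near 6430527G18Rik, chr12:88225483-88225682: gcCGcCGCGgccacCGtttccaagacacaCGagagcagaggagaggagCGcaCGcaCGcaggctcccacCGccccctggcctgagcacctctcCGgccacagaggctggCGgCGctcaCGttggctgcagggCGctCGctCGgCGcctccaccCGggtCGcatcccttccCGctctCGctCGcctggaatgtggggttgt
Gm14419 near Mid1, chrX:166417659-166417858: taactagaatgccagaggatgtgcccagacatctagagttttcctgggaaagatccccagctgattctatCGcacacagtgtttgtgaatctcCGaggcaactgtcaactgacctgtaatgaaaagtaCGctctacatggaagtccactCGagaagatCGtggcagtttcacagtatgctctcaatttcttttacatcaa
Gm14419 near Speer7-ps1, chr5:15185433-15185632: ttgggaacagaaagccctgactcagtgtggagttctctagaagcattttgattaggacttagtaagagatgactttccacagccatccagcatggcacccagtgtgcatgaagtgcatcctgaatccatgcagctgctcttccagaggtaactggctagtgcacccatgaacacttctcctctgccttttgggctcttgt

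Both Zfp808 windows share long identical stretches although they lie on chromosomes 13 and 2, and each holds the 10 letters close to its summit. The Gm14412 window near Det1 is made of imperfect copies of a 40 bp unit and has no CpG, and the one near Veph1 has 11 CpGs. The Gm13152 windows hold 31 and 22 CpGs, and the Gm14419 windows 5 and 0.

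Every member was assigned to 1 of 4 kinds, with rules chosen after the values were seen. In 69 of 322 broad peaks (21.4%) at least 50% of the called region lay in a tandem repeat, meaning runs of 12 or more bases that recur at 1 fixed distance of up to 500 bp. Of the rest, 79 (24.5%) had their summit within 1 kb of an annotated transcript start. Another 136 (42.2%) were neither but had a multi-copy summit window, meaning a median of 2 or more exact genome copies for its 24-mers. The last 38 (11.8%) were single-copy and away from starts. With a tandem minimum of 30% or 70% of the region in place of 50%, 79 and 54 members were tandem. The kinds were divided unevenly between KRAB-ZFPs: most of the multi-copy members belonged to Zfp808 (103 of 136), 50 of the 79 at transcript starts to Gm13152, and 41 of the 69 tandem members to Gm14412.

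For comparison, 18% of the 23810 narrower peaks of the same 19 KRAB-ZFPs had a summit within 1 kb of a start, 28.9% had a CpG-island-like window (GC of 50% or more and a CpG observed/expected ratio of 0.6 or more), 41.6% had a multi-copy window and 4.47% had a tandem repeat over at least 50% of a 1 kb window. Over all broad peaks the same shares were 24.5% (79 of 322), 30.7% (99), 64% (206) and 23.6% (76). These pooled shares weight each KRAB-ZFP by its number of broad peaks: without Zfp808 the CpG-island-like share was 46.7%, and without Gm13152 it was 14.6%. The share near starts was 36.7% without Zfp808 and 11.5% without Gm13152, and the tandem share 35.7% without Zfp808 and 13.6% without Gm14412.

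The comparison was therefore made within each KRAB-ZFP, where antibody, control and threshold are the same for broad and narrower peaks. Only 4 KRAB-ZFPs had at least 10 of both, so that the exact two-sided sign-flip permutation test over KRAB-ZFPs could not give a p below 0.125. The CpG-island-like share was higher in broad peaks in 4 of 4, by 14.6 percentage points on average (SD 18.1, n = 4 KRAB-ZFPs), with an exact p of 0.125, or 0.625 after Benjamini-Hochberg adjustment over the 5 tests. The share near transcript starts was higher in 3 of 4, by 10.5 points (SD 10.5, exact p = 0.25, adjusted 0.625). GC content was 3.23 points higher (SD 5.52, 3 of 4, exact p = 0.375, adjusted 0.625) and the multi-copy share 4.29 points higher (SD 12.5, 3 of 4, exact p = 0.625, adjusted 0.781). The CpG observed/expected ratio differed by 0.035 (SD 0.27, 2 of 4, exact p = 0.875, adjusted 0.875). None of the 5 differences passed, and the spread between KRAB-ZFPs was close to or above the mean difference in each test. The promoter difference turned to -6.32 points at a width of 2000 bp or more, and the CpG observed/expected difference to -0.06 without Gm13152. The CpG-island-like share was higher in broad peaks in 5 of 9 KRAB-ZFPs at 1000 bp or more and in 1 of 3 at 2000 bp or more. With tandem peaks dropped on the broad side only, the multi-copy difference was -7.7 points, though the share stayed higher in 3 of 4 KRAB-ZFPs. All 41 tandem members of Gm14412 were multi-copy, so dropping them lowers its broad share by construction. Zfp808 and Gm13152 were both called over the F9 input, so that their values are not fully independent.

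**Figure D2:**
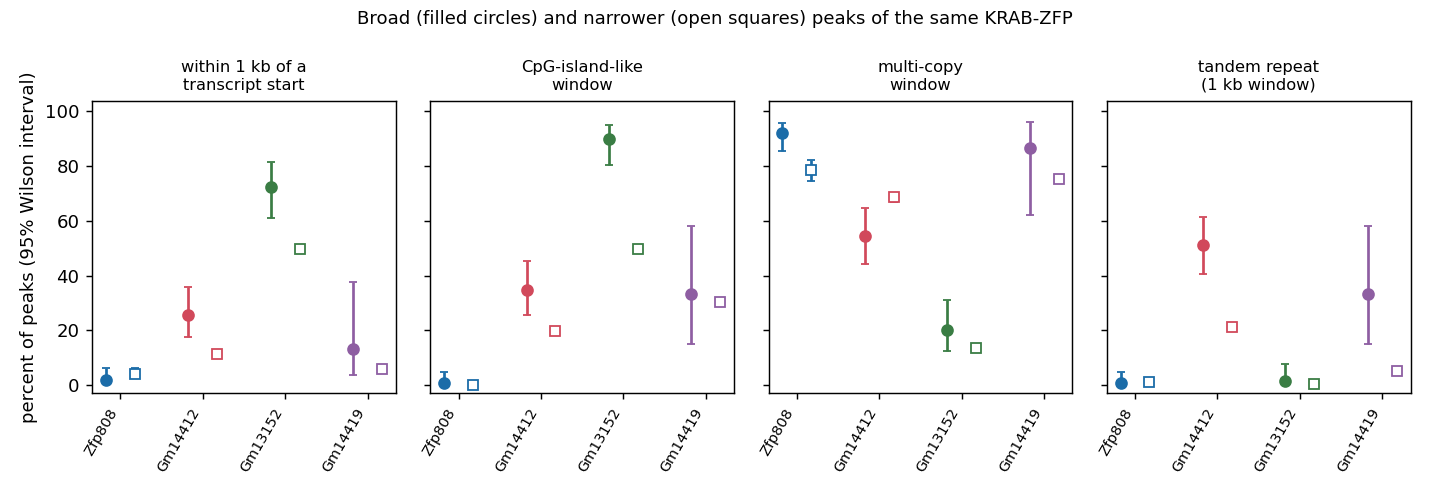
Percent of broad (filled circles) and narrower (open squares) peaks of Zfp808, Gm14412, Gm13152 and Gm14419 in 4 categories, with 95% Wilson intervals that cover counting error only. Gm13152 broad peaks reach 89.9% in the CpG-island-like panel against 49.8% for its narrower peaks, while Zfp808 stays under 1% in both.

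Zfp808 (HA, F9 cells) gave AT-rich, CpG-poor broad peaks away from genes. Of its 112 broad summits 97 were intergenic and 15 intronic, and the median distance to a transcript start was 32.3 kb, against 29.4 kb for its 432 narrower peaks. GC content was 34.5% ± 3.77 (SD, n = 112 peaks of 1 library) in broad and 36.0% ± 3.63 (n = 432) in narrower peaks. The summit window held no CpG at all in 62 broad peaks (55.4%) and 222 narrower ones (51.4%). Its windows were multi-copy in 103 of 112 broad peaks (92.0%, 95% Wilson interval 85.4 to 95.7) and in 340 of 432 narrower peaks (78.7%, 74.6 to 82.3), with a median of 10 and 9 genome copies. Intervals for peaks of 1 library count peaks as if independent and cover counting error only.

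The Zfp808 members largely belonged to 1 sequence family. Linking 2 members when at least 10% of the 24-mers of the shorter one occur in the other placed 99 of 112 (88.4%) in a single group, with 8 left alone. The 24-mer found in most Zfp808 summit windows occurred in 49 of 112 broad (43.8%) and 151 of 432 narrower peaks (35%), and in 45 of the 52467 peaks of the other KRAB-ZFPs. In 49 broad peaks (43.8%) a direct repeat lay within 10 kb of the summit, meaning 100 or more shared 24-mers at 1 distance, at a median distance of 4570 bp. The narrower peaks had one in 143 of 432 (33.1%), at a median of 5935 bp. No repeat annotation was used here, so these families carry no name.

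Broad Zfp808 peaks held 197 to 932 tags with a median of 573.5, against 73 to 720 with a median of 253.5 in narrower ones, and the median fold was 74.3 against 45.3. The widest was 2425 bp at chr13:3335757-3338181 (801 tags, 88.8-fold, intergenic). The next was 2403 bp at chr2:99409256-99411658 (697 tags, 92.9-fold, intergenic), followed by 2320 bp at chr13:12917708-12920027 (863 tags, 45.7-fold, intergenic). Only 2 had a summit within 1 kb of a transcript start, at Vwa3b and AC122520.2. Because reads with several equally good positions were placed on 1 of them by a pseudo-random draw, tags at a multi-copy member may come from another copy.

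Gm13152 (FLAG, F9 cells) had its broad peaks at CpG-rich transcript starts. Of 69, 50 had the summit within 1 kb of a start (72.5%, Wilson 61.0 to 81.6), against 2547 of 5120 narrower peaks (49.7%, 48.4 to 51.1). A CpG-island-like window was found in 62 (89.9%, 80.5 to 95) against 2552 (49.8%, 48.5 to 51.2). GC content was 73.6% ± 6.96 (SD, n = 69 peaks) against 62.4% ± 12.3 (n = 5120), and the CpG observed/expected ratio 0.933 ± 0.246 against 0.614 ± 0.323. Of the 69, 10 were near-identical copies in 1 array on chromosome 6 and are not independent of each other.

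The starts under Gm13152 broad peaks belonged to protein-coding genes in 49 of 50 cases, and in 49 the start itself lay inside the called region. Summits fell upstream of the start in 25 and the called regions held 98 to 314 CpGs, with a median of 166.5. The widest, 3424 bp with 436 tags and 32.9-fold enrichment, covered the start of 6430527G18Rik (chr12:88222779-88226202) with its summit in the UTR. The highest fold, 124.75 with 569 tags over 1582 bp, was at Slc25a28, which encodes a mitochondrial iron carrier (chr19:43748778-43750359). The peak at Cggbp1, which encodes a CGG-repeat-binding protein, had 572 tags and 99.6-fold enrichment over 1500 bp. Another wide peak, 2370 bp with 328 tags and 37.3-fold enrichment, lay in a coding exon of the zinc-finger gene Zfp316 (chr5:144014844-144017213), where 3 other KRAB-ZFPs also had a peak.

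Further starts under Gm13152 broad peaks are given as examples picked after their values were seen, and stand for no gene group. Samd1 encodes a protein that binds unmethylated CpG islands (517 tags, 74.1-fold over 2144 bp, GC 86.5% at the summit). Phf10 encodes a chromatin-remodelling subunit (424 tags, 34.2-fold over 1952 bp, GC 89.0%), and Ing1 a reader of methylated histone H3 (309 tags, 40.9-fold over 2128 bp). Rest, the repressor of neuronal genes, had 282 tags and 27.1-fold enrichment over 1758 bp. Skil, an inhibitor of SMAD signalling, had 308 tags and 41.3-fold enrichment over 2143 bp. Clock, a core circadian activator, had 272 tags and 47.7-fold enrichment over 1778 bp, and Socs1, a feedback inhibitor of cytokine signalling, had 257 tags and 59.1-fold enrichment over 1639 bp.

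Broad peaks were also counted at the starts of listed genes that KRAB-ZFP or high-output loci might hit. Of 30 abundant housekeeping genes 1 had a broad peak within 1 kb, Hspd1, which encodes the mitochondrial chaperonin and shares a start region with Hspe1 (Gm13152, 317 tags, 49.1-fold). Of 39 Hox genes 1 had one, Hoxd8 (Gm13152, 188 tags, 38.1-fold). Of 367 zinc finger genes with a Zfp number 2 had one, Zfp292 (Gm14412, 534 tags, 132.81-fold) and Zfp637 (Gm14412, 425 tags, 42.0-fold). None of 91 ribosomal protein genes, 67 histone genes, 24 pluripotency genes, 16 KAP1 silencing genes, 7 noncoding RNA genes of high output or 1087 olfactory receptor genes had one. Over all 33924 annotated genes 86 had a broad peak, or 0.254%, and over the 22238 protein-coding genes 77, or 0.346%. The share was 3.33% for the housekeeping, 2.56% for the Hox and 0.545% for the zinc finger genes. These list shares rest on 1 or 2 genes each. At 0.254% most of the lists would hold no such gene, so neither these shares nor the zeros are read as a result. The same KRAB-ZFPs had a narrower peak at 12.7% of all annotated genes and at 16.8% of the protein-coding ones. The share was 13.2% for the ribosomal protein genes and 13.4% for the histone genes. For the housekeeping genes it was 36.7%, for the KAP1 silencing genes 31.3% (5 of 16) and for the olfactory receptor genes 0.276%. For the Hox genes it was 17.9%, the zinc finger genes 20.7%, the pluripotency genes 12.5% and the noncoding RNA genes 28.6% (2 of 7).

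Gm13152 had 10 broad peaks in a single array on chromosome 6, between the protein-coding genes Ezh2 and Pdia4 (chr6:47604337-47723321). In 6 cases the neighbouring summits were 4321 to 4405 bp apart, and shared 24-mers around each summit recurred at 4306 to 4345 bp. Each summit window had a median of 15 genome copies, GC of 71.5 to 72.5% and a CpG observed/expected ratio of 1.23 to 1.28, which only 1 other member, the Zfp316 peak at 1.25, reached. The 10 peaks held 249 to 457 tags at 21.4- to 28.5-fold enrichment over 1579 to 2760 bp. In each called region 95.6 to 100% of the 24-mers were multi-copy. Reads with several equally good positions were placed on 1 of them by a pseudo-random draw. Similar tags therefore do not show that every copy is bound. The summit of 1 of the 10 peaks lay 941 bp upstream of the annotated miRNA gene AC166252.1 and was counted among the starts. The other 9 lay over 5 kb from any start. They were the only Gm13152 peaks in the interval, and no other KRAB-ZFP had a peak there. Between the 2 summits that lay farthest apart, 67.5 kb, the mm9 assembly has 50000 undetermined bases, 76.5% of the sequence between those peaks. In the GRCm38.p6 gene table the genes between Ezh2 and Pdia4 include the small RNA genes Rn4.5s, Rny1 and Rny3, whose positions were not carried over to mm9. Without the array the share near starts differed by 13.2 points and the CpG-island-like share by 14.2 points on average over the 4 KRAB-ZFPs.

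**Figure D3:**
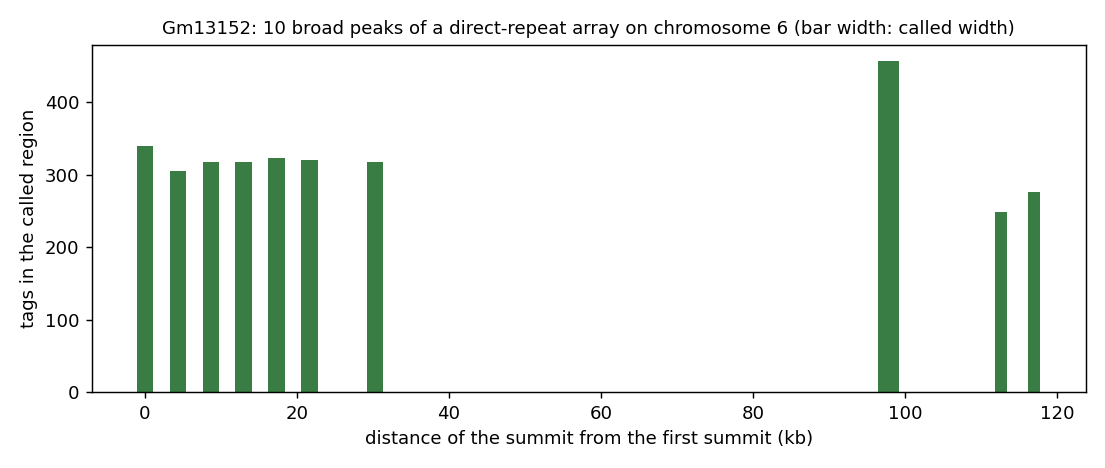
Tags in the called region of the 10 Gm13152 broad peaks of the chromosome 6 array against the distance of each summit from the first one (kb), with bars as wide as the called peak. The 7 peaks on the left hold 306 to 340 tags, and the empty stretch in the middle contains the assembly gap.

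Gm14412 (HA, F9 cells, called over the Gm14296 control ChIP) had 2 contrasting kinds of broad peak. Of its 86 members 41 were tandem repeats and 22 lay at transcript starts, with 6 others multi-copy and 17 single-copy. At the tandem members the median summit GC content was 63.0% and the median CpG observed/expected ratio 0.515. At the starts they were 74.5% and 0.923. Over all 86, the share within 1 kb of a start was 25.6% (Wilson 17.5 to 35.7) against 11.5% (10.3 to 12.7) in the 2701 narrower peaks, and the multi-copy share 54.7% (44.2 to 64.7) against 68.7% (66.9 to 70.4). A tandem repeat covered at least 50% of the 1 kb window in 51.2% (40.8 to 61.4) against 21.1% (19.6 to 22.7).

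In 27 of the 41 tandem members of Gm14412 the repeat distance was 214 bp, and these had a median of 972 genome copies. They lay on many chromosomes, with folds of 25.7 to 106.84 (median 81.5). The same 24 letters were the most frequent stretch in several of them, so this array type is dispersed through the genome. In another 5 members the repeat distance was 6 bp, with a median of 28864 genome copies and folds of 23.2 to 36.0. Arrays with other distances also had copies of this 6 bp unit as their most frequent stretch. Among them were 1 near Itga6 (distance 42 bp, 56.7-fold) and 1 near Gm17546 (distance 182 bp, 33.8-fold). The letters CTGCCT, read from these arrays and counted on both strands, occurred 20 or more times in the 1 kb window of 17 of 86 broad (19.8%) and 687 of 2701 narrower Gm14412 peaks (25.4%). The widest Gm14412 peak, 4622 bp with 3736 tags and 138.66-fold enrichment, was an array of a 40 bp unit in an intron of Det1 (chr7:85975139-85979760). The most frequent stretch of each array is printed here, from the mm9 plus strand to show how the 3 kinds differ.
Gm14412, chr3:66438017-66438040: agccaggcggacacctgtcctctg
Gm14412, chr5:116259452-116259457: ctgcct
Gm14412, chr7:85975938-85975977: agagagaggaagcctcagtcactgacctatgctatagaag

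The 24 letters of the first occurred 10 times exactly in that peak (2582 bp, 1175 tags, 81.5-fold, near Veph1). The 6 letters of the second occurred 216 times in a peak of 1752 bp, and the 40 letters of the third 43 times. A further wide Gm14412 peak, 3072 bp with 759 tags and 45.1-fold enrichment, lay in an intron of Pfkfb4, a regulator of glycolysis. There Gm21082 (FLAG, called over other controls) had its only broad peak, 1709 bp with 279 tags and 36.0-fold enrichment, beside a 925 bp peak. The summits of the 2 broad peaks were 310 bp apart.

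The Gm14412 starts were all of protein-coding genes, 22 of 22, with the start inside the called region in 21. Rims4, which encodes a presynaptic active-zone protein, had 530 tags and 145.5-fold enrichment over 1652 bp. Zfp292 had 132.81-fold enrichment. Herc1, a large ubiquitin ligase, had 653 tags and 131.43-fold enrichment over 1509 bp, and Foxj3, a forkhead transcription factor, 409 tags and 124-fold enrichment over 1576 bp. Among those named after their values were seen, Vcl, which encodes the focal adhesion protein vinculin, had 541 tags and 101.5-fold enrichment over 1834 bp. Htt, the huntingtin gene, had 231 tags and 54.4-fold enrichment over 1925 bp. A single-copy member lay in the coding exon of Lor (loricrin, a glycine-rich protein of the skin barrier), with 1113 tags and 140.17-fold enrichment over 2334 bp and 38.1% of the region tandem.

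**Figure D4:**
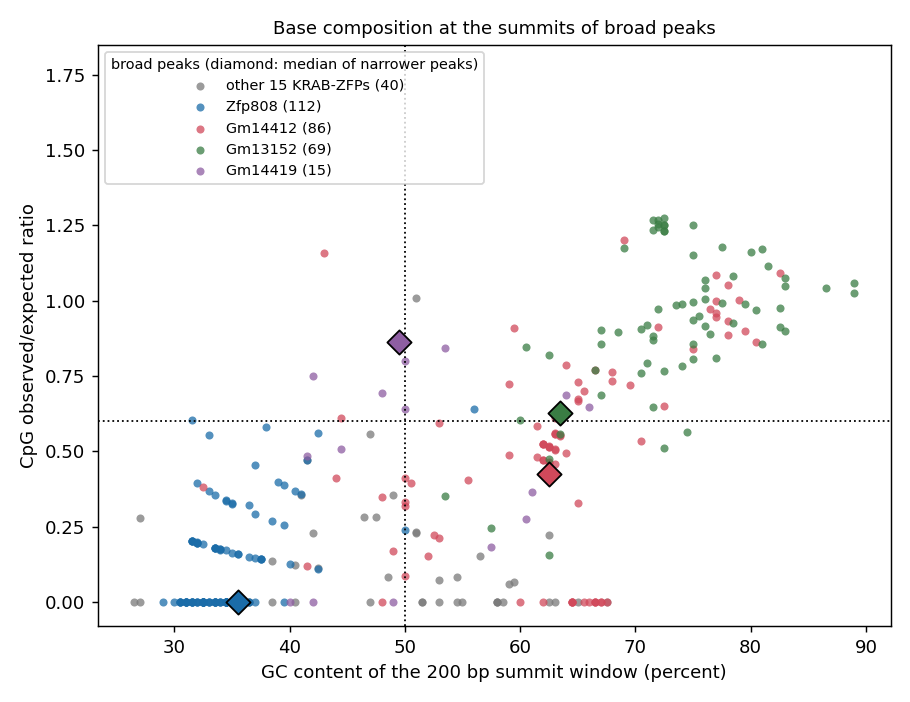
CpG observed/expected ratio against GC content (percent) of the 200 bp summit window of each broad peak, coloured by KRAB-ZFP, with diamonds at the median of the narrower peaks of the same KRAB-ZFP and dotted lines at 50% and 0.6. Gm13152 peaks lie at the upper right, Zfp808 peaks at the lower left, and Gm14412 peaks spread between a tandem group near 63% GC and the CpG-rich starts.

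Gm14419 (HA, ES cells) differed in strength. Its 15 broad peaks had a median fold of 9.22 (3.1 to 15.8), while its 3891 narrower peaks had a median of 24.5. The label of this library sets p under 1e-05 and no enrichment minimum. The widest, 8337 bp with 354 tags and 3.84-fold enrichment, lay at the start of Mid1 on the X chromosome (chrX:166411486-166419822), which encodes a microtubule-associated ubiquitin ligase. The next were 4300 bp at Speer7-ps1 (342 tags, 3.24-fold) and 4249 bp in an intron of a and Gm14226 on chromosome 2 (226 tags, 3.1-fold). The CpG observed/expected ratio was 0.458 ± 0.302 (SD, n = 15 peaks) in broad peaks against 0.776 ± 0.357 (n = 3891) in narrower peaks. Of 5 tandem members, 2 were neighbouring calls in Flg2, which encodes the repetitive epidermal protein filaggrin-2 (67 tags, 9.22-fold and 64 tags, 9.9-fold).

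The other ES cell libraries gave weak broad peaks as well. The 7 of Gm14420 had folds of 2.31 to 34.0, the 5 of Gm14401 of 3.53 to 7.24 and the 3 of Zfp931 of 3.73 to 8.33. The false discovery rate that the caller reported by swapping sample and control was over 5% for 20 members of 6 KRAB-ZFPs, all of Gm14420, Gm14401, Zfp931, Zfp273, Zfp429 and Zfp457. The remaining 302 members of 13 KRAB-ZFPs were at 5% or less. Over setups, the median fold of broad peaks was 4.45 in the ES cell libraries, 41.3 with FLAG in F9 cells, 73.8 with HA in F9 cells and 56.4 for Gm14412. Cell type, antibody, sequencing control and threshold differ together between these setups and cannot be told apart.

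Several KRAB-ZFPs with few broad peaks had them in tandem repeats. All 8 broad peaks of Zfp661 (HA, F9 cells) were tandem, with 58.4 to 98.4% of the region repeated. By the 1 kb window, a tandem repeat covered at least 50% in all 8 and in 32 of the 1057 narrower Zfp661 peaks (3.03%). Both broad peaks of Zfp273 and of Zfp429, 3 of 5 of Gm13154, and the single ones of AW146154, Gm21082, Zfp457, Zfp46, Zfp599 and Zfp617 were tandem as well. Of the 3 of Gm13154, 2 were neighbouring calls near Tlr2 on the same repeat and are not independent. Tandem members made up 2 of 7 for Gm14420, 0 of 5 for Gm14401 and 0 of 3 for Zfp931, and the single ones of LOC102638055 and Zfp882 were not tandem by this rule. The unit differed between them. The most frequent stretch is printed below from the mm9 plus strand for 8 arrays, chosen after the values were seen to show how the units differ between KRAB-ZFPs and the stretch that an array of Zfp661 and the one of Zfp457 have in common.
Zfp661, chr12:100742936-100742959: tacagctgtgctgtgtgctacagg
Zfp661, chr5:104759764-104759787: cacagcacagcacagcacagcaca
Zfp457, chr13:74665912-74665935: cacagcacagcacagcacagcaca
Zfp46, chr12:111606648-111606671: aaggcctcctgatgcagtgatgtg
Zfp599, chr8:93627778-93627801: ctgtaaggtgttggaccctctgta
AW146154, chr17:87411714-87411746: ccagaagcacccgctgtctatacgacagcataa
Zfp273, chr16:32490032-32490058: tgtagtcaaggtctattggtagtgtag
Gm13154, chr3:83649549-83649570: tggatggtgcttgctatgggca

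The Zfp661 array near Foxn3 was 5483 bp wide with 3258 tags and 119.89-fold enrichment (chr12:100742639-100748121), and its 24 letters occurred 44 times. The next widest Zfp661 peaks were 2494 bp in an intron of Matn3 (999 tags, 76.5-fold) and 2041 bp in an intron of Rps6kc1 (544 tags, 50.1-fold). The most frequent stretch of 6 of the 8 Zfp661 arrays held CTGTG or its reverse complement CACAG. Counted on both strands, those 5 letters occurred 1 to 141 times in the 1 kb windows of broad Zfp661 peaks and 152 times in that of the Zfp457 member. The letters were read from these same arrays, so that high counts there follow from the choice of word. Zfp661 and Zfp457 were called over the same control libraries. The caller gave the Zfp457 member a false discovery rate of 100% at 16.35-fold enrichment.

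Zfp46 (FLAG, F9 cells) had 1 broad peak, which held the most tags of any member, 6255, at 148.98-fold enrichment over 3973 bp (chr12:111606360-111610332, intergenic, 76.7 kb upstream of the start of Ppp2r5c). Its most frequent 24 letters occurred 69 times. The peak of Zfp599 in an intron of Rbl2, which encodes the pocket protein p130, had 1076 tags and 124.23-fold enrichment over 1544 bp. The AW146154 peak in an intron of Pigf held 33 exact copies of a 33 bp unit (900 tags, 87.1-fold). The member with the highest fold of all, 159.95 with 435 tags over 1548 bp, belonged to Gm13154 and was single-copy and intergenic on chromosome 3 (chr3:14430226-14431773), with 14.9% of the region tandem.

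**Figure D5:**
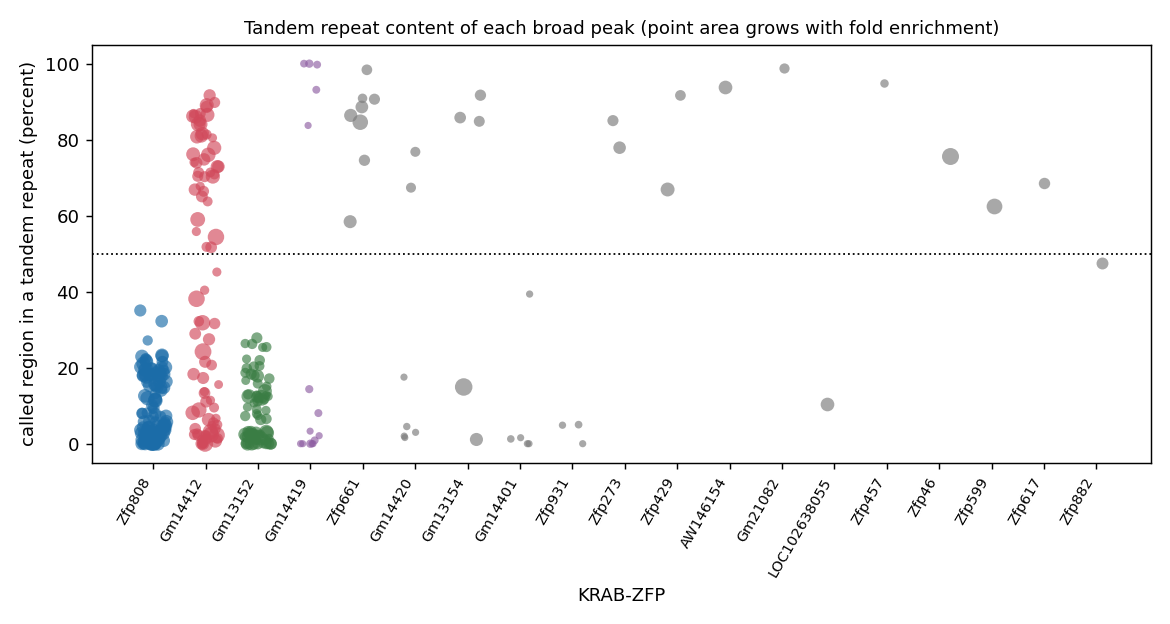
Percent of the called region in a tandem repeat for each broad peak of the 19 KRAB-ZFPs, with point area growing with fold enrichment and a dotted line at 50%. The 8 points of Zfp661 lie between 58.4 and 98.4%, Gm14412 splits into an upper and a lower group, and no Zfp808 or Gm13152 point lies above the line.

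The short sequence that marked the narrower peaks of a KRAB-ZFP was looked for in its broad peaks. For each KRAB-ZFP the 10 letters whose share in its single-copy narrower peaks most exceeded their share in the peaks of the other KRAB-ZFPs were taken, searched on both strands, so that the value for narrower peaks is chosen and only the value for broad peaks is not. For Gm13152 this was CCAGAGGGTC, found in 19.4% of its narrower summit windows (991 of 5120) but in 0 of 69 broad ones, and in 1 of 69 when the whole called region was searched. For Gm13154 it was CCATTGCTGC, in 14.7% of narrower windows and in 0 of 5 broad regions. For Zfp617 it was ACCATGACCA, in 75.1% of 763 narrower windows and in 0 of the 1 broad region, and for Zfp599 AACATGGCAG, in 30.3% and 0 of 1. For Zfp808 its 10 letters GGTGCACCAA were in 58.1% of narrower windows (251 of 432) and in 72.3% of broad ones (81 of 112). For Gm14412 the letters were the GC-rich CCGCCGCCGC, in 3.67% of narrower and 16.3% of broad windows (14 of 86). For Gm14420 they were AGCAGCAGCA, in 34.0% of narrower and 42.9% of broad windows (3 of 7). The other KRAB-ZFPs had 1 to 15 broad peaks each, and none of those regions held the letters. Such numbers are too few to read an absence from, and the same holds for Gm13154, Zfp617 and Zfp599. No match says only that these exact letters are not in the window, since related forms were not searched.

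A pair of KRAB-ZFPs had a broad peak on a coding exon of its own gene. Zfp617 had 259 tags and 52.1-fold enrichment over 1607 bp in the Zfp617 coding exon (chr8:74455878-74457484), its widest peak of 764. Zfp882 had 467 tags and 59.2-fold enrichment over 1534 bp in the Zfp882 coding exon (chr8:74437372-74438905), its widest of 100 and the second by fold. The repeat distances there were 168 and 252 bp, and 68.7 and 47.5% of the regions were tandem. Of the 63 KRAB-ZFPs with a gene of that name in the annotation 5 had any peak in their own gene, all with summits in coding exons. The study lists the reading frames of Zfp617 and Zfp882 as not codon optimised, so that reads from the integrated vector and from the gene cannot be told apart at these exons.

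Broad peaks of different KRAB-ZFPs overlapped at 8 loci. Only 0.651% of the peaks were broad, so this count does not tell how often the sites are shared. Narrower peaks of other KRAB-ZFPs also had summits inside members, with up to 3 other KRAB-ZFPs in 1 member. The 322 members merged into 314 loci, of which 8 were broad in 2 KRAB-ZFPs and 0 in 3 or more. Gm13152 and Gm14412, which share no control library, both had a broad peak at the starts of Rims4 and Foxj3. At Rims4 Gm13152 had 204 tags (35.5-fold over 1573 bp) and Gm14412 530 tags (145.5-fold), with summits 457 bp apart. At Foxj3 they had 202 tags (24.4-fold over 1509 bp) and 409 tags (124-fold), with summits 301 bp apart, and Zfp931 had a 382 bp peak there. Gm14412 and Gm14419 shared a 214 bp array on chromosome 14 (chr14:106736737-106738558) and 1 on chromosome 18, with summits 577 and 225 bp apart. At Mid1 Gm14401 had a broad peak (1515 bp, 94 tags, 7.24-fold) inside the one of Gm14419, with summits 4287 bp apart, and the labels name the same ES input for both. That name matches the title of no control sample exactly. At the locus of a and Gm14226 Zfp931 (3828 bp, 208 tags, 3.73-fold) overlapped Gm14419, with summits 2126 bp apart and another ES input named in its label. The last was an intron of C130026I21Rik, broad in Gm14412 and Gm14420 with summits 2934 bp apart.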

How the data were processed

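ChIP-seq peaks of 67 labelled KRAB-ZFPs were taken from 1 deposited table. The authors mapped reads to mm9 with Bowtie or Bowtie2, placing a read with several best positions at one of them by a pseudo-random draw, called peaks per library with MACS 1.4.2 and gave each peak as a 200 bp window around the summit. The deposited values used are the called width and summit offset (bp), the tag count, the score (-10 log10 of the caller's p-value), the fold enrichment (a ratio) and the false discovery rate in percent. A name with 244 peaks matched no label and was not used, and 1 labelled KRAB-ZFP had no rows.

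From these, called regions were rebuilt, and gene context (GENCODE M1), base composition, exact 24-mer copies, tandem repeats and direct repeats were computed on NCBIM37 (mm9) with Python 3.11.15, numpy 2.4.6, pandas 2.3.3 and scipy 1.17.1. Intervals are 95% Wilson. Broad and narrower peaks were compared within KRAB-ZFPs having 10 or more of each by a two-sided sign-flip permutation test, exact below 10 KRAB-ZFPs, adjusted over 5 tests. The functions were tested on simulated data. Named peaks were the 3 widest of the 5 KRAB-ZFPs with most broad peaks, the 10 with the highest fold, the 3 on either side of 1500 bp, loci broad in 3 or more KRAB-ZFPs, and listed genes with a broad peak. The members and lists were chosen with earlier results of these data known. Alternatives changed the width, caller thresholds, windows, distances, copy minimums and KRAB-ZFPs included.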

Additional observations from a re-analysis of the deposited data

How the results depend on the processing

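With 1000 or 2000 bp in place of 1500 bp the number of broad peaks was 1847 and 67, and 210 without Zfp808. The difference in promoter share reversed to -6.32 points at 2000 bp. The difference in CpG observed/expected ratio reversed to -0.069 when 5 broad peaks sufficed and to -0.06 without Gm13152. The difference in multi-copy share rose to 25.4 points when 5 broad peaks sufficed (higher in 7 of 8 KRAB-ZFPs, exact p = 0.0391, unadjusted), which added Zfp661, Gm14420, Gm13154 and Gm14401. It reversed to -8.01 points when 10 copies were required and to -15.3 points with 100 copies. It was -7.7 points without the tandem broad peaks, with the tandem narrower peaks kept. That last alternative and the one without the chromosome 6 array were chosen after seeing the data. The cause of these changes was not tested. The difference in promoter share shrank to 1.07 points at 1000 bp (higher in 3 of 9 KRAB-ZFPs). It was 1.22 points when 5 broad peaks sufficed (4 of 8). The CpG-island-like difference was 6.41 points at 1000 bp (5 of 9) and 16.4 points at 2000 bp (1 of 3). When 5 broad peaks sufficed it was 3.46 points (4 of 8). The other alternatives of the 5 differences kept the direction of the mean and the side of the threshold, which with 4 KRAB-ZFPs or fewer no value could cross. The number of broad peaks was 293 under the stricter caller thresholds and 302 at a false discovery rate of 5% or less. No paired analysis was possible because each KRAB-ZFP has 1 library, so that replicate numbers pair no libraries, and the pairing of broad with narrower peaks within a library is the comparison itself. Whether depth bears on the widths was not tested, since the table holds tags in peaks but no library totals.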
